A study of Homo sapiens with 8 samples.

Results

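The E2F transcription factors and the retinoblastoma proteins were followed as a group of 10 genes, E2F1 to E2F8, RB1 and RBL1, after DNA damage in mammary epithelial cells with and without p53. Each gene was matched to the array by the transcript accession given for its probes, or by its symbol. All 10 of the 10 genes were found among 20296 genes named on the array. They were read by 15 probes, and a gene with several probes was represented by the brightest on average. The other probes of the 4 genes with more than 1 are described as well.

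The cells were MCF10A, a non-tumorigenic human mammary epithelial line, with the genotypes p53+/+ and p53-/-. They were treated for 2 h with doxorubicin (adriamycin, ADR), which breaks DNA and traps topoisomerase II, at 0.5 µg/ml according to the sample labels, and the methods of the study give another dose. RNA was taken from untreated cells at 0 h and from treated cells at 12, 24 and 48 h, so that the 4 time points and the 2 genotypes make 8 single-colour Agilent arrays. Each condition was measured on 1 array, and replicate error is therefore unknown throughout. How the p53-/- line was derived, and whether it is 1 clone, is not given in the sources used here.

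E2F factors switch on the genes a cell needs to enter S phase. E2F1, E2F2 and E2F3 are known as activators, E2F4 and E2F5 mostly act as repressors together with pocket proteins, E2F6 represses with Polycomb proteins and has no pocket-binding part, and E2F7 and E2F8 are atypical repressors that bind DNA without a DP partner. RB1, RBL1 (p107) and RBL2 (p130) are the pocket proteins that hold E2F factors inactive. Cyclin-dependent kinases release the factors by phosphorylating the pocket proteins, and p21, the product of the p53 target CDKN1A, inhibits those kinases. E2F7 has been described as a direct p53 target in other cells. E2F1 and E2F2 are also known as E2F targets themselves.

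Levels are given as the log2 of the processed signal, that is, the intensity after the scanner software's background correction, after division by that array's 75th percentile, as a difference of log2 values. A level of 0 is thus the 75th percentile, and levels of different probes are not compared with each other. The 75th percentile lay between 661 and 1199 signal units, lowest on the p53+/+ 48 h array, and 49.8 to 62.9% of probes were well above background. On 7 arrays 6 of the 10 spike-in transcripts were well above background, whereas on the p53+/+ 48 h array 0 were. All arrays lay on 1 slide, p53-/- in one column and p53+/+ in the other, so that position and genotype cannot be told apart. Every array showed 8 of the 9 basal epithelial markers well above background, and 3 arrays also TP63.

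The labels were examined first. Decorin (DCN), a matrix protein, read 5.75 on the array labelled p53+/+ 0 h, 5.70 to 6.07 on the p53-/- arrays and 2.09 to 2.37 on the treated p53+/+ arrays. Lumican (LUM), another matrix protein, read −1.32 there, −2.64 to −1.11 on the p53-/- arrays, and was not well above background on the treated p53+/+ arrays. That array differed by at least 2-fold from the p53-/- 12 h array in 4.88% of 15811 genes, the lowest share of all pairs of arrays, and from the treated p53+/+ arrays in 23.9 to 31.3%. DCN and LUM on the array labelled p53+/+ 0 h thus read at the p53-/- level. Of the p53 targets, CDKN1A read −1.14 on that array and −2.97 on the p53-/- 0 h array. MDM2, by its probe in 10 spots, was not well above background there at −4.94, beside −4.28 on the p53-/- 0 h array. The array in doubt is called by its label throughout. The comparison of treated with treated cells comes first because it needs no 0 h array. Changes in p53+/+ cells are given from both 0 h arrays.

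**Figure D1:**
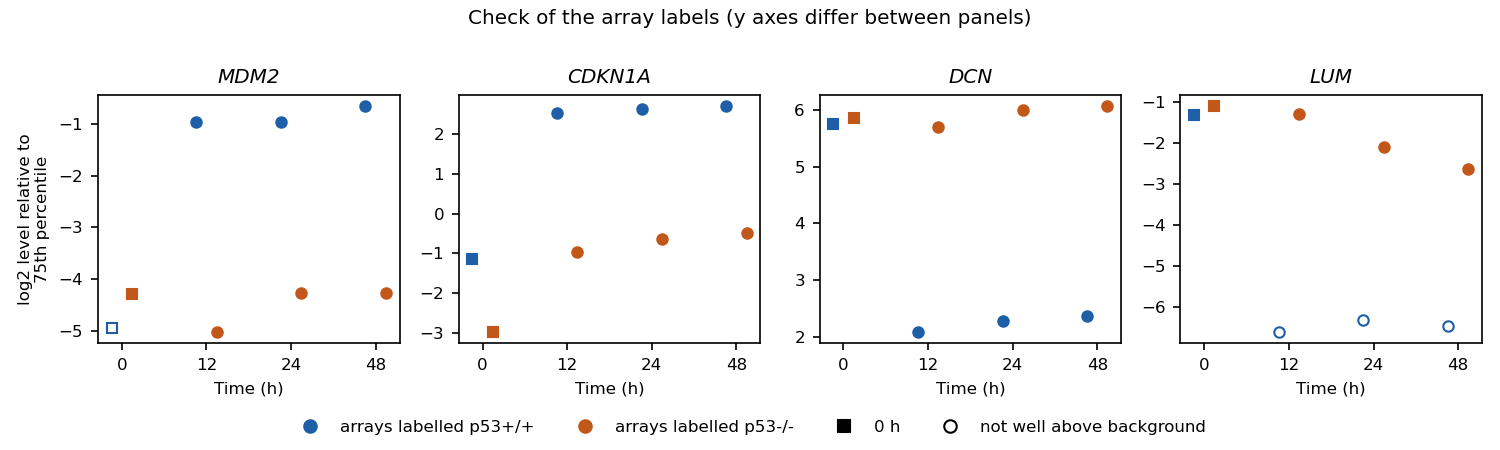
Log2 level relative to the 75th percentile of the array (y axis) at 0, 12, 24 and 48 h (x axis) for MDM2 (10 spots) and CDKN1A, DCN and LUM (2 spots each), with p53+/+ labels in blue and p53-/- labels in orange, squares for 0 h and open symbols where a probe was not well above background. The blue square at 0 h lies with the orange points for DCN and LUM, at 5.75 and −1.32.

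After ADR, 4 of the 10 genes, E2F1, E2F2, E2F3 and E2F8, were lower in p53+/+ than in p53-/- cells by at least 2-fold at all 3 times, and 0 were higher by that size at all 3 times. Over the 15811 genes that passed the filter on low signal (well above background on 1 array or more), 5.92% were lower by this rule and 6.75% higher. Counting differences of any size, 7 of 10 were lower at every time (28.2% of all genes) and 2 of 10, E2F7 and RB1, were higher (33.6%). RBL1 was lower by 2-fold at 24 and 48 h. E2F4, E2F5 and E2F6 stayed within 2-fold at every time. The 3 treated p53+/+ arrays lay wholly below the 3 treated p53-/- arrays for 5 of 10 genes (19.9% of all genes) and wholly above for 2 of 10 (24.6% of all genes). Since RNA was taken from whole cultures, fewer cells in S phase and less of a transcript in each cell cannot be told apart.

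**Figure D2:**
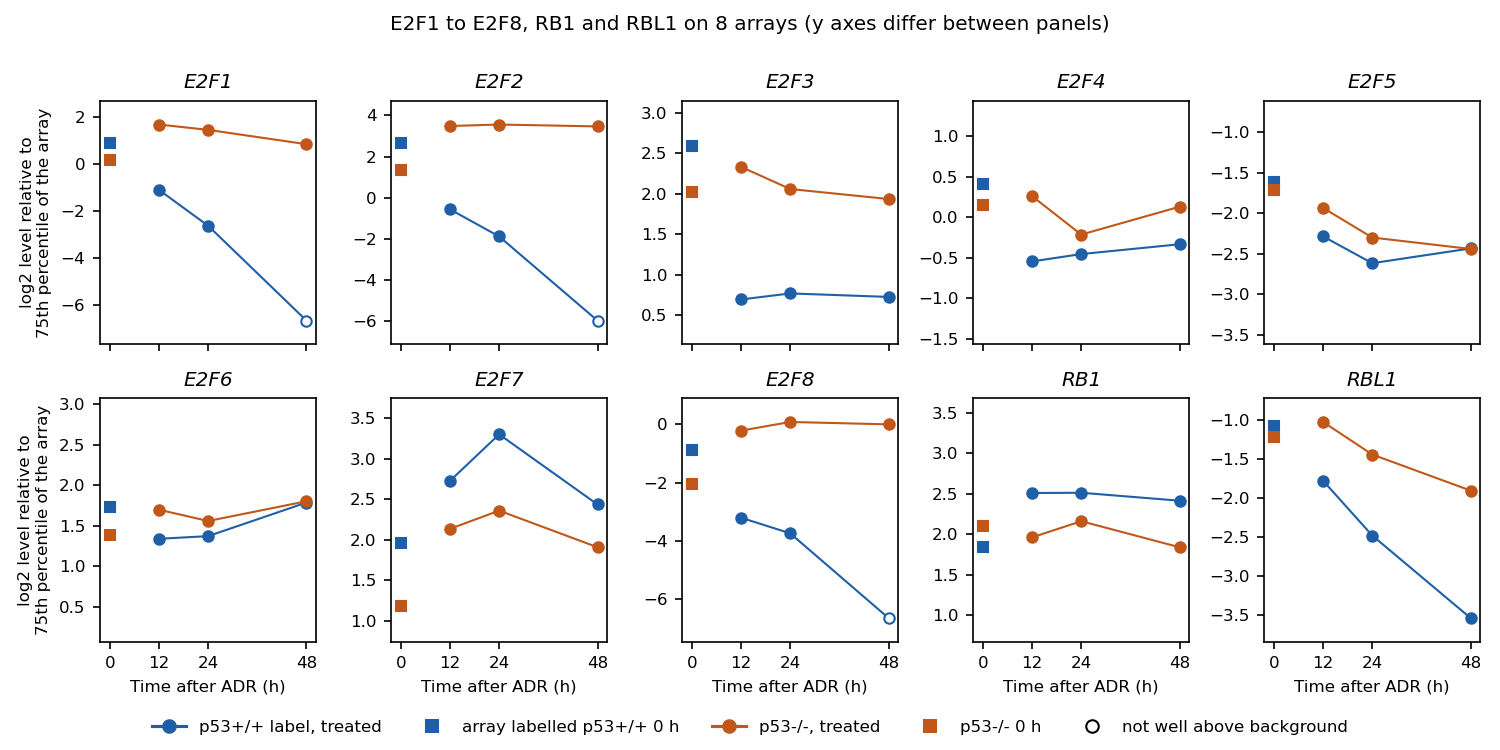
Log2 level relative to the 75th percentile of the array (y axis, scale differs between panels) against time after ADR in hours (x axis) for each of the 10 genes, blue for p53+/+ and orange for p53-/- labels, squares for the 0 h arrays, 1 array per point and open symbols where a probe was not well above background. E2F1, E2F2 and E2F8 descend in p53+/+ cells to −6.65, −5.99 and −6.66 at 48 h, while E2F7 peaks at 24 h in both genotypes.

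E2F1, the activator that also promotes apoptosis after damage, was measured by a probe for NM_005225 printed in 10 spots. With p53 its level went through −1.08, −2.61 and −6.65 at 12, 24 and 48 h, whereas without p53 it was 1.70, 1.47 and 0.86. The spots of an array had an SD of 0.07 to 0.15, and the spots of the treated p53+/+ arrays, from −6.86 to −0.98, did not overlap those of the treated p53-/- arrays, from 0.63 to 1.82. The difference between genotypes was −2.78 at 12 h and −4.08 at 24 h, or 6.88- and 17.0-fold lower in p53+/+ cells, with technical SDs of 0.04 and 0.03. These technical SDs come from the spots of a probe and do not cover cultures, labelling or arrays. At 48 h the probe was not well above background in p53+/+ cells, and E2F1 was at least 44.8-fold lower there. Such a bound takes the dim array at the lowest level that any probe well above background had on it, or at the probe's own level if higher.

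**Figure D3:**
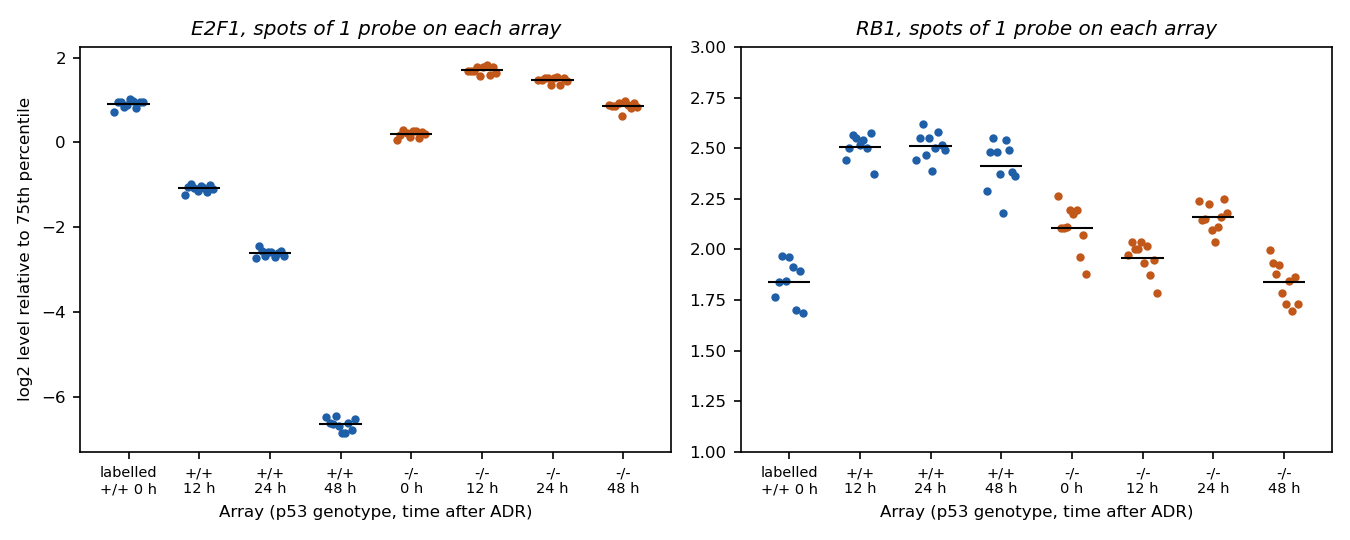
Log2 level relative to the 75th percentile (y axis) of the single spots (points) of the E2F1 probe and of the RB1 probe on each of the 8 arrays (x axis), with the mean of the spots as a line, blue for p53+/+ and orange for p53-/- labels. For E2F1 the spots of treated p53+/+ arrays lie below −0.98 and those of treated p53-/- arrays above 0.63; for RB1 the lowest p53+/+ spot at 48 h, 2.18, lies under the highest p53-/- spot at 24 h, 2.25.

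E2F2, an activator of the same class, showed the largest genotype difference of the 10 genes at 12 and 24 h. Its probe (NM_004091, 2 spots) read −0.57, −1.89 and −5.99 with p53, whereas without p53 it read 3.49, 3.56 and 3.47. The level was flat across the 3 times in p53-/- cells and descended at each step in p53+/+ cells. Both earlier differences had a technical SD of 0.07 and were −4.06 (12 h) and −5.45 (24 h), or 16.6- and 43.7-fold, and at 48 h, when the p53+/+ array was not well above background, E2F2 was at least 273-fold lower.

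E2F3, the third activator, differed less and did not descend further with time. With p53 it read 0.70, 0.77 and 0.73, against 2.33, 2.06 and 1.94 without p53, and every array was well above background. The difference was −1.64, −1.29 and −1.21 at 12, 24 and 48 h, or 3.11-, 2.44- and 2.31-fold lower in p53+/+ cells (technical SD 0.06 to 0.07). A second E2F3 probe, printed in 1 spot, gave −1.50, −1.75 and −0.95, the last of these under 2-fold.

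The promoters of the activators and of RBL1 are shown as background, since E2F factors are known to bind such sites. The choice of these genes followed their shared direction, lower in treated p53+/+ cells, but does not cover every gene with that direction. E2F4 and E2F6 were also lower at all 3 times, counting any size, held 0 matches and are not printed. The lower genes printed are thus those in which a match was found. The 80 bases before the transcription start are printed 5′ to 3′ on the gene's strand from the RefSeq promoter set (GRCh38.p14), and capitals mark matches to TTTCCCGC, TTTCGCGC, TTTGCCGC or TTTGGCGC on either strand, which may overlap each other.
E2F1 (chr20:33686386-33686465, minus strand): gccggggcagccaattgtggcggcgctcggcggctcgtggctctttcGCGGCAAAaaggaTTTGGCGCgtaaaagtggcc
E2F2 (chr1:23531234-23531313, minus strand): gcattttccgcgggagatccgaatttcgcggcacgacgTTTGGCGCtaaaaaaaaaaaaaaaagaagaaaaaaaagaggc
E2F3 (chr6:20401799-20401878, plus strand): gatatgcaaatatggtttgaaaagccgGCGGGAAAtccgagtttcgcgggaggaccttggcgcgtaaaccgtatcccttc
RBL1 (chr20:37095998-37096077, minus strand): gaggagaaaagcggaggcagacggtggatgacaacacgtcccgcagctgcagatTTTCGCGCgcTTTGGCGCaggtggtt
E2F7 (chr12:77065570-77065649, minus strand): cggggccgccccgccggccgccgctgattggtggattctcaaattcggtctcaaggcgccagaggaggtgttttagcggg
Within the 250 bases before the start, E2F1 and RBL1 held 2 matches each and E2F2 and E2F3 held 1 each, all of them in the stretch shown. A second E2F3 start, 1735 bases further into the gene, held 0, as did E2F4, E2F6 and E2F7, the last of which is printed as an example with 0 matches. E2F5, E2F8 and RB1 were not searched, since the set used here had no entry for the former pair and for RB1 held only a start inside the gene. Of 35116 promoters in the set, 979 (2.79%) held at least 1 match in 250 bases. A match is a description of letters, and no binding was measured in these cells. Other forms of E2F site were not searched, and a link between matches and changes was not tested.

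Of the atypical repressors, E2F8 went with the activators and E2F7 did not. E2F8 (NM_024680), read by 1 spot, was at −3.21, −3.75 and −6.66 with p53, against −0.21, 0.09 and 0.00 without p53. The groups were far apart, with a difference of −3.00 at 12 h and −3.83 at 24 h (technical SD 0.16 and 0.15), or 7.98- and 14.3-fold lower in p53+/+ cells. At 48 h it was not well above background in p53+/+ cells and was at least 24.8-fold lower. E2F7 (NM_203394, 2 spots) was at 2.72, 3.30 and 2.43 with p53, against 2.13, 2.36 and 1.91 without p53. Its treated p53+/+ levels lay above all treated p53-/- levels, by 0.59, 0.94 and 0.53 on the log2 scale (technical SD 0.06), or 1.51-, 1.92- and 1.44-fold. A second E2F7 probe in 1 spot gave differences of 0.97, 1.18 and 0.36. Without scaling between arrays the mean E2F7 difference was 0.09 in place of 0.69, since the median of all genes then stood at −0.37, −0.52 and −0.76 at the 3 times.

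E2F4, E2F5 and E2F6 differed by less than 2-fold between genotypes at every time. E2F4 (NM_001950) was at −0.54, −0.45 and −0.33 in treated p53+/+ cells and at 0.26, −0.21 and 0.13 in treated p53-/- cells, with differences of −0.81, −0.24 and −0.46. E2F5 (NM_001951) was at −2.29, −2.62 and −2.44 with p53, against −1.94, −2.30 and −2.44 without p53. The E2F5 groups overlapped, and the difference went from −0.35 at 12 h to 0.01 at 48 h. E2F6 (NM_198256) was at 1.34, 1.37 and 1.79 with p53, against 1.70, 1.56 and 1.80 without p53, which also overlapped. The other E2F6 probes, 1 of which was made for NM_212540, gave differences between −0.47 and 0.05, so that no E2F6 probe reached 2-fold at any time.

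The pocket proteins divided in direction. RB1 (NM_000321, 10 spots) was at 2.51, 2.51 and 2.41 in treated p53+/+ cells and at 1.96, 2.16 and 1.84 in treated p53-/- cells. The array means did not overlap, and the difference was 0.55, 0.35 and 0.57 (technical SD 0.03 to 0.05), or 1.46-, 1.28- and 1.49-fold. Without scaling the mean RB1 difference turned from 0.49 to −0.11, so that its direction rests on the scaling. RBL1 (NM_002895, 2 spots) was at −1.78, −2.48 and −3.54 with p53, against −1.02, −1.44 and −1.90 without p53. It descended with time in both genotypes, and the difference was −0.75, −1.04 and −1.64, or 1.69-, 2.06- and 3.11-fold lower in p53+/+ cells. A second RBL1 probe, for NM_183404, gave −1.33, −2.16 and −1.30, and was too dim to stand well above background on the 3 treated p53+/+ arrays and the p53-/- 48 h array. RBL2, the remaining pocket protein, was higher in p53+/+ cells by 2.00-, 2.42- and 1.98-fold, so that its differences at 12 and 48 h lay just under the 2-fold line.

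**Figure D4:**
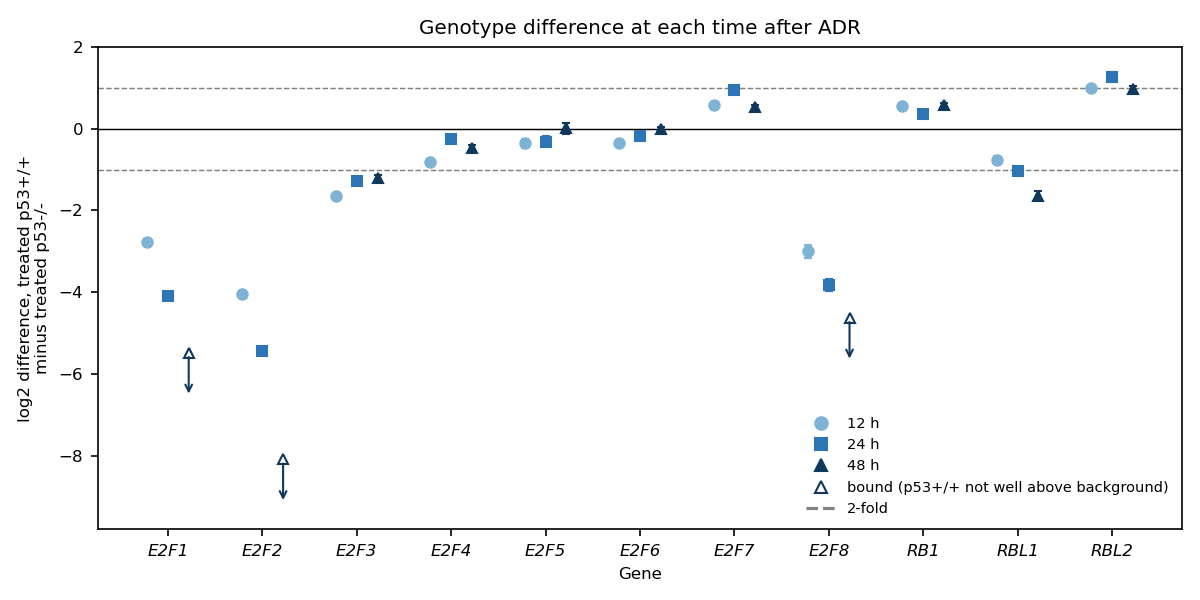
Log2 difference between treated p53+/+ and treated p53-/- cells (y axis) at 12, 24 and 48 h for the 10 genes and RBL2 (x axis), with the technical SD from spots as bars, dashed lines at 2-fold and open triangles with arrows for bounds where the p53+/+ 48 h array was not well above background. E2F1, E2F2, E2F3 and E2F8 lie below the lower dashed line at every time and E2F7 and RB1 between 0 and the upper one.

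A model fitted over the 28947 probes that passed the same filter was used to set these differences against movement over time. The 3 treated time points of a genotype stood in for replicates, leaving 4 residual degrees of freedom, so that its p-values do not describe differences between cultures. With limma and Benjamini-Hochberg adjustment 4 of the 10 genes were lower in treated p53+/+ cells (7.4% of probes), namely E2F3 with a log2 difference of −1.38 (SE 0.18, adjusted p = 0.00521), E2F8 with −4.50 (SE 0.85, adjusted p = 0.0163), E2F2 with −6.32 (SE 1.28, adjusted p = 0.0199) and E2F1 with −4.79 (SE 1.31, adjusted p = 0.0499). None of the 10 was higher after adjustment by limma (10.6% of probes), and 2, E2F7 and RB1, had an unadjusted p under 0.05. The adjusted p from limma was 0.131 for E2F7, 0.104 for RB1, 0.143 for RBL1 and 0.130 for E2F4. With time point as a block RBL1 was also called lower by limma (log2 difference −1.14, SE 0.24, adjusted p = 0.0453), which made 5 of 10. With normexp background correction E2F4 was called lower and RB1 higher (adjusted p = 0.0353 and 0.0394). The shares of all probes called lower in the blocked and normexp fits are not given here, so these added calls have no background beside them. Leaving out the 24 h arrays ended all 4 calls, with 85 probes lower and 207 higher in that limma fit. E2F1 alone also missed the threshold without the 12 h arrays (adjusted p = 0.0669) and with quantile normalization (adjusted p = 0.0564), and its adjusted p from limma ran from 0.00254 to 0.243 over the settings tried. Without the 48 h arrays, the time of the bounds and of the array with 0 spike-ins above background, limma gave adjusted p = 0.0346, 0.0157, 0.0314 and 0.0115 for E2F1, E2F2, E2F3 and E2F8. The log2 differences in that fit were −3.43, −4.75, −1.46 and −3.42 in the same order. The main fit took the p53+/+ 48 h values of E2F1, E2F2 and E2F8 as measured and not at their bounds.

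Changes from 0 h were measured from the array labelled p53+/+ 0 h and, because of the doubt about it, from the p53-/- 0 h array as well. In p53+/+ cells E2F1, E2F2, E2F3 and E2F8 were the 4 of 10 genes that fell at all 3 times from either array (6.39 and 6.79% of all genes). The 0 h level of E2F1 was 0.91 by the p53+/+ label and 0.20 by the p53-/- label, and the change at 12 h was −1.99 or −1.28. E2F2 stood at 2.65 and 1.34 on these arrays, and its change at 12 h was −3.22 or −1.91. E2F3 changed by −1.90, −1.82 and −1.87 from the first and by −1.33, −1.26 and −1.30 from the second. E2F8 changed by −2.33 and −2.86 at 12 and 24 h from the first, and by −1.16 and −1.70 from the second. The size of each fall thus depended on the baseline, while for the probes chosen its direction and its place past 2-fold did not. A change from the p53-/- 0 h array is also a difference between genotypes. Since the array labelled p53+/+ 0 h read at the p53-/- level for DCN and LUM, the 2 baselines are not independent checks. With that label in doubt, a fall within p53+/+ cells cannot be told apart from a difference between genotypes. The other E2F3 probe changed by −1.59, −1.87 and −1.44 from the array labelled p53+/+ 0 h. From the p53-/- 0 h array it changed by −0.92, −1.20 and −0.77, under 2-fold at 12 and 48 h.

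E2F7 was the single gene of the 10 that rose by 2-fold at all 3 times in p53+/+ cells from the p53-/- 0 h array (9.55% of all genes), by 1.54, 2.11 and 1.25. From the array labelled p53+/+ 0 h its changes were 0.77, 1.35 and 0.48, and 0 of the 10 genes rose by the rule (9.53% of all genes). RB1 changed by 0.67, 0.67 and 0.57 or by 0.40, 0.40 and 0.31, under 2-fold from either array. RBL1 changed by −0.70, −1.40 and −2.46 from the first and by −0.56, −1.27 and −2.33 from the second.

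In p53-/- cells 2 of 10 genes, E2F2 and E2F8, rose at all 3 times from the p53-/- 0 h array (3.21% of all genes) and 0 fell (2.04%). E2F2 was at 1.34 at 0 h and changed by 2.14, 2.22 and 2.12, and E2F8 was at −2.05 and changed by 1.83, 2.13 and 2.05. E2F1 went from 0.20 to 1.70, 1.47 and 0.86, past 2-fold at 12 and 24 h, and E2F7 changed by 0.95, 1.17 and 0.72. RB1 stayed within 0.27 and E2F3, by the probe chosen, within 0.30 of the 0 h level. The other E2F3 probe changed by 0.58, 0.55 and 0.18. From the array labelled p53+/+ 0 h, which had higher E2F1, E2F2, E2F7 and E2F8 than the p53-/- 0 h array by 0.71, 1.31, 0.77 and 1.16, 0 of the 10 genes rose (1.85% of all genes) and 0 fell (1.08%), and the E2F2 changes were 0.84, 0.91 and 0.82. The rise in p53-/- cells therefore rested on a single 0 h array. E2F1, E2F2 and E2F8 were the 3 of 10 genes that lay below the array labelled p53+/+ 0 h at all 3 times in p53+/+ cells and above the p53-/- 0 h array at all 3 times in p53-/- cells (11.1% of all genes). Whether the response differed between genotypes was fitted with limma as an interaction of genotype and treatment over the 8 arrays, which takes the array labelled p53+/+ 0 h as it is labelled. Of the 10 genes 0 passed the adjusted threshold (0.746% of probes lower and 0.94% higher), and 3, E2F2, E2F3 and E2F8, had an unadjusted p under 0.05.

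E2F1, E2F2 and RBL1 went on to lower levels in p53+/+ cells after 24 h. Because E2F1, E2F2 and E2F8 were not well above background on the p53+/+ 48 h array, their last step was measured to the bound on that array. From 24 to 48 h E2F1 was lower by at least 4.04-fold and E2F2 by at least 6.67-fold. RBL1, well above background at both times, changed by −1.06, and these 3 were the genes of the 10 lower by at least 2-fold at this step (4.96% of all genes at their bounds). For E2F8 the bound was 1.84-fold, so that a 2-fold step was not secured. Between 12 and 24 h E2F1 changed by −1.53 and E2F2 by −1.32, and these were the 2 of 10 past 2-fold (1.99% of all genes). In p53-/- cells 0 of 10 were lower by 2-fold at either step (0.727 and 0.784% of all genes). E2F3 moved by −0.04 between 24 and 48 h in p53+/+ cells and E2F7 by −0.87. The p53+/+ 48 h array was also the one with the lowest 75th percentile and with 0 spike-ins well above background, and the part of this in the step from 24 to 48 h was not tested.

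Genes that E2F factors are known to drive were lower in p53+/+ cells as well. Of 41 genes of the G1/S transition and of DNA replication, 31 were lower in treated p53+/+ than in treated p53-/- cells by at least 2-fold at all 3 times, also with dim values at their bounds, and 0 were higher, beside 5.92 and 6.75% of all genes. The median difference was −1.57, −1.83 and −3.88 at 12, 24 and 48 h, beside medians over all genes of 0.09, −0.03 and 0.10, and with the 9 genes that were not well above background at 48 h taken at their bound the last was −3.82. With limma 19 of the 41 were lower at an adjusted p under 0.05 and 0 higher, beside 7.4 and 10.6% of all probes. UHRF1, which recruits maintenance DNA methylation to new DNA, read −0.91, −2.07 and −3.32 with p53, against 2.72, 2.62 and 2.48 without p53. It differed by −3.63, −4.69 and −5.80, and even at 12 h, its smallest, by more than any other gene of the list at its smallest. MCM6 and MCM2, subunits of the replicative helicase, differed by −2.53, −3.41 and −3.88 and by −2.30, −2.34 and −4.53. MCM10, which helps the helicase start, differed by −2.49 and −2.80 at 12 and 24 h and was at least 32.2-fold lower at 48 h.

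Not every gene of this list was lower. PCNA, the sliding clamp of DNA polymerase and also a known p53 target, differed by 0.50, 0.60 and −0.00 between genotypes. LIG1, the ligase that joins Okazaki fragments, differed by −0.10, −0.06 and −0.52. Between 24 and 48 h, with dim values at their bounds, 33 of the 41 genes were lower by at least 2-fold in p53+/+ cells (4.96% of all genes). The median of the list at this step was −1.79 beside 0.06 over all genes. In p53-/- cells 1 of 41 was lower (0.784% of all genes). Measured from 0 h, 24 of the 41 fell at all 3 times in p53+/+ cells from the array labelled p53+/+ 0 h (6.39% of all genes). From the p53-/- 0 h array 11 fell (6.79% of all genes) and 1 rose (9.55%). In p53-/- cells 7 of the 41 rose from the p53-/- 0 h array (3.21% of all genes) and 0 from the array labelled p53+/+ 0 h (1.85%).

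**Figure D5:**
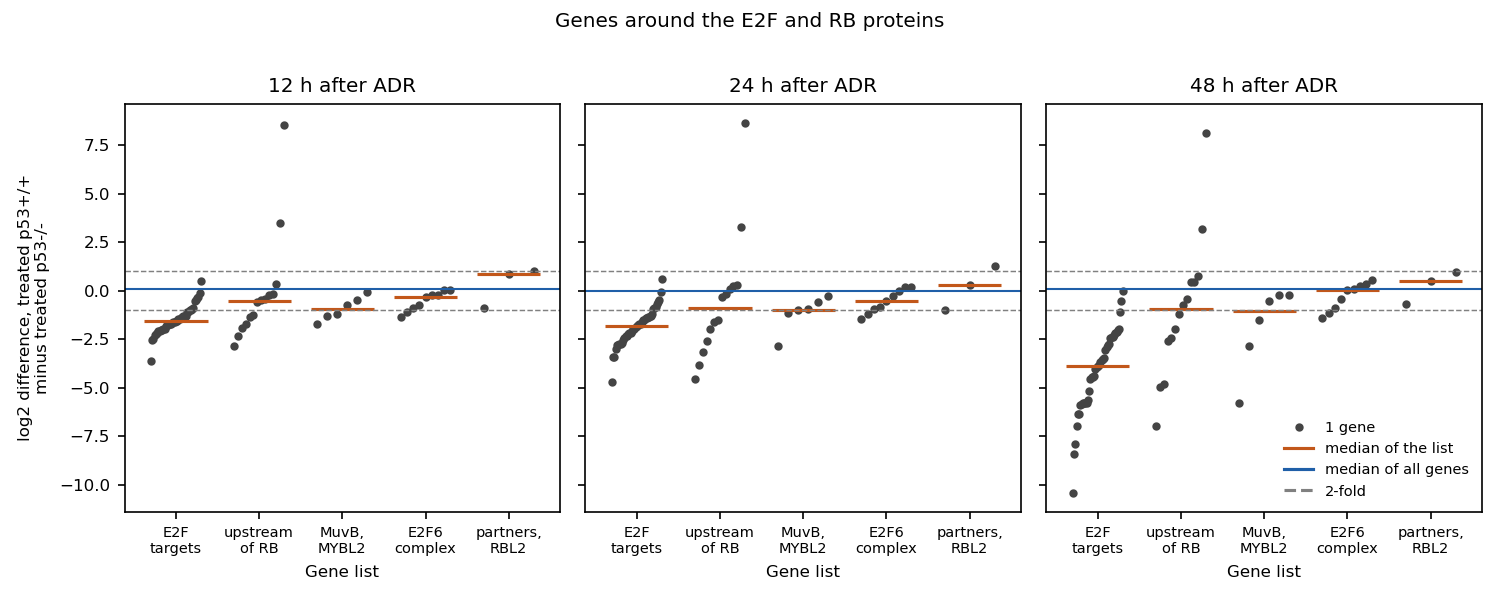
Log2 difference between treated p53+/+ and treated p53-/- cells (y axis) of single genes (points, sorted within each list) in 5 gene lists (x axis) at 12, 24 and 48 h, with the median of each list in orange, the median of all genes in blue and dashed lines at 2-fold. Measured values are drawn, including those not well above background at 48 h; the E2F target genes have medians of −1.57, −1.83 and −3.88.

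Among the cyclins, kinases and inhibitors that act on the pocket proteins, 6 of 14 genes were lower and 2 higher in treated p53+/+ cells at all 3 times, beside 5.92 and 6.75% of all genes, and limma called 7 lower and 2 higher, beside 7.4 and 10.6% of all probes. CDKN1A, the p53 target that encodes p21, was at 2.54, 2.63 and 2.70 with p53, against −0.96, −0.64 and −0.48 without p53, or 11.3-, 9.62- and 9.03-fold higher. CCND2, cyclin D2, was well above background on the treated p53+/+ arrays and on no other array, including the one labelled p53+/+ 0 h, and was at least 123-, 90.1- and 198-fold higher at 12, 24 and 48 h. CCNE1 and CCNE2, the cyclin E genes and known E2F targets, were lower in p53+/+ cells, CCNE1 by 4.97-, 9.01- and 5.97-fold and CCNE2 by 7.19- and 23.7-fold and then by at least 63.6-fold. CCND1 and CCND3, the other D cyclins, together with CDK6 and CDKN1B differed by less than 2-fold at every time. Named after their values were seen, CDK4, CDK2, CDKN1C and CDKN2C were the other genes lower at all 3 times. The kinases CDK4 and CDK2 differed by −1.72, −1.99 and −1.21 and by −1.36, −1.63 and −2.41. CDKN1C and CDKN2C, inhibitors as CDKN1A is, differed by −1.94, −3.80 and −4.98 and by −1.27, −2.58 and −4.78.

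The DP partners TFDP1 and TFDP2 differed by less than 2-fold at every time by the probes chosen. TFDP1 differed by −0.89, −0.98 and −0.69 on the log2 scale (limma adjusted p = 0.0301), and TFDP2 by 0.85, 0.29 and 0.49 (limma adjusted p = 0.129). A second TFDP1 probe gave −0.94, −1.22 and −0.86, past 2-fold at 24 h (limma adjusted p = 0.0263). TFDP3 was not well above background on any array. With RBL2 these made 3 measured genes, of which 0 passed 2-fold at all 3 times. RBL2 was called higher by limma (log2 difference 1.09, SE 0.21, adjusted p = 0.0186). Of the 3 genes limma thus called 1 lower and 1 higher, beside 7.4 and 10.6% of all probes.

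Over the 8 arrays the levels of E2F1, E2F2 and E2F8 ran together, with Pearson r of 0.988 between E2F1 and E2F2, 0.973 between E2F1 and E2F8 and 0.996 between E2F2 and E2F8. RBL1 followed E2F1 with r = 0.94, and RB1 ran against E2F4 with r = −0.94. Among 13761 other genes well above background on at least 4 arrays, those most like E2F1 were ORC1, POLE2 and TMEM97 (r = 0.999, 0.998 and 0.997), the first of which encodes a subunit of the origin recognition complex and the second a subunit of DNA polymerase epsilon. Most like E2F7 were MRPS6, ARSI and HSPB8 (r = 0.99, 0.98 and 0.97), and most like RB1 were AP1G2, DLG5-AS1 and SLC44A5 (r = 0.99, 0.99 and 0.98). These correlations describe 8 points that share 1 slide, and 234 genes had r over 0.95 with E2F1, 14 with E2F7 and 38 with RB1. They include the p53+/+ 48 h array as measured, on which E2F1, E2F2, E2F8, ORC1 and POLE2 were not well above background. The weight of that array in each r was not tested.

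Markers of other cell types were checked beside these results. The fibroblast markers DCN, LUM and PDGFRB, summed as signal over the 75th percentile, came to 4.29 to 5.21 on treated p53+/+ arrays, where LUM and PDGFRB were not well above background, and to 52.3 to 67.1 on p53-/- arrays, where each of the 3 was well above background on 1 array or more. The 9 basal epithelial markers summed to 307 to 470 on treated p53+/+ arrays and to 149 to 179 on p53-/- arrays. On the array labelled p53+/+ 0 h the fibroblast markers came to 54.3, with PDGFRB not well above background, and the basal markers to 194. DCN and LUM had already been used in the check of the labels, so the fibroblast sum is not a separate check. Endothelial markers summed to at most 0.473 and immune markers to at most 0.144 on any array. The part of these differences in the E2F values was not tested.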

How the data were processed

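RNA of MCF10A cells was measured on 8 single-colour arrays, and groups were taken from the sample labels. The authors deposited the output of Agilent Feature Extraction 10.7.3.1 for each array, whose processed signal is an intensity on a linear scale already corrected for background, and a table of the whole series that held the same intensity values (503808 of 503808 equal). The file headers name the human build hg19. Normalization between arrays is not given in the sources used here. Of 58717 spots that were not controls, uneven and outlying ones were left out, which left 42391 of 42405 probes. The log2 intensity minus the log2 75th percentile of the array was then taken as the mean over a probe's spots. Probes were named by transcript accession through a RefSeq gene table of GRCh38.p14, which matched 27227 probes (64.2%). Since the builds differ, coordinates are given for the RefSeq promoters only.

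The 10 genes, the gene lists and the tests were chosen with earlier results of these data known. A call was a difference of at least 2-fold at all 3 treated times. The technical SD came from the 10 spots of a probe or, for probes in fewer spots, from 999 probes printed in 10 spots at a similar level. limma (lmFit, eBayes) was fitted on genotype over the 6 treated arrays, and on genotype, treatment and their interaction over 8 arrays, and a probe was called under an adjusted p (Benjamini-Hochberg) of 0.05. The fit was tested on simulated data. Genes named from a list were the up to 4 with the largest smallest difference over the times and up to 4 under 2-fold at every time; the 3 genes most like E2F1, E2F7 and RB1 were taken by Pearson r. Alternatives were median, quantile and no scaling, normexp (offset 50) on the median spot signal in place of the scanner's correction, all probes of a gene, a 3-fold rule, 2 of 3 times, each time left out, filters on dim probes, time as a block, and the other 0 h array. The array labelled p53-/- 0 h as baseline was planned, while the array labelled p53+/+ 0 h as baseline for p53-/- cells, each other probe, lists and time steps at their bounds and target counts under each scaling were added after seeing the data. Some results are not reported here. Precision is limited by there being 8 arrays. R 4.3.3, limma 3.58.1, Python 3.11.15, numpy 2.4.6, pandas 2.3.3 and matplotlib 3.10.9 were used.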

Additional observations from a re-analysis of the deposited data

Results flagged for a closer look

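For 3 of the 10 genes, and for 11.1% of all genes, every treated p53+/+ array lay below the array labelled p53+/+ 0 h while every treated p53-/- array lay above the p53-/- 0 h array. For E2F1 the mean log2 change over the 3 times was −4.36 in p53+/+ and 1.15 in p53-/- cells, a difference of −5.50. For E2F2 the means were −5.46 and 2.16, a difference of −7.63. For E2F8 they were −3.66 and 2.00, a difference of −5.66. The interaction of genotype and treatment in limma had adjusted p = 0.348, 0.199 and 0.160 for the 3 genes, so none of these differences passed the adjusted threshold. Each mean in p53+/+ cells includes the 48 h array, on which all 3 probes were not well above background, and rests on the array labelled p53+/+ 0 h, which read like the p53-/- arrays at DCN and LUM.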

How the results depend on the processing

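No paired analysis was possible because, by replicate number, each condition has only 1 array. Arrays of the same time point, which are not replicates, were joined by a block for time, under which RBL1 became the fifth member called lower (adjusted p = 0.0453). The 4 members lower in treated p53+/+ cells kept their direction under every setting, and no result changed sign that had passed a threshold in the main setting. RB1, called higher with normexp only, had a log2 difference of −0.11 without scaling. The rise of 2 members in p53-/- cells became 4 without scaling and 0 from the array labelled p53+/+ 0 h, and the rise of 0 members in p53+/+ cells became 1 from the p53-/- 0 h array. Without scaling the median log2 change of all genes in p53-/- cells was itself 0.33, 0.38 and 0.52 at 12, 24 and 48 h. In the limma fit over treated arrays, 4 members and 2143 probes were lower and 0 members and 3058 probes higher. Without scaling these were 8 members and 8028 probes lower and 1365 probes higher. With normexp 7257 probes and 1 member, RB1, were higher, and E2F4 joined the members called lower. Without a filter 9832 probes were higher. With probes above background on every array 1 member, E2F3, was lower, since E2F1, E2F2 and E2F8 then leave the fit. Without the 12, 24 or 48 h arrays 1211, 85 and 1133 probes were lower and 1459, 207 and 1438 higher, and without the 24 h arrays 0 members were lower. The interaction fit called 216 probes lower and 272 higher, and 0 members. Lower probes numbered 326 with quantile normalization, 1115 without scaling, 420 with normexp and 14 with time as a block. Higher probes numbered 181 without scaling, 831 with normexp, 443 above background on every array and 46 with time as a block. Without the 12, 24 or 48 h arrays it called 9, 0 and 0 lower and 33, 0 and 0 higher. It called 1 member, E2F3, lower without scaling and on probes above background on every array, and 3, E2F2, E2F3 and E2F8, with normexp. The median difference of the MuvB list, −0.95, was −1.09 with median scaling, −1.08 with quantile normalization and −1.55 without scaling. The median change of the E2F targets in p53+/+ cells, −2.19, was −1.66 from the p53-/- 0 h array, and that in p53-/- cells, 0.84, was 1.23 without scaling. The cause was not tested for these shifts. RBL1 joined the genes lower in treated p53+/+ cells with median scaling, without scaling, with the mean of all probes, with 2 of 3 times and without 12 h. The 31 targets lower became 30 to 35 under the other scalings and were 31 without 48 h. With dim values as measured, 4 members and 34 targets were lower from 24 to 48 h in p53+/+ cells, in place of 3 and 33.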

Other observations

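Complexes that E2F or pocket proteins join were read from the same comparison. The MuvB core joins RBL1 or RBL2 and E2F4 in the DREAM complex and MYBL2 in another. The list of its genes together with MYBL2 had a median difference of −0.95 between treated p53+/+ and treated p53-/- cells over the 3 times. Of the 6 genes of this list 1 was lower at all 3 times, beside 5.92% of all genes, and it was not a gene of the core. That gene, MYBL2, the B-Myb factor, is itself a known E2F target and read 0.32, −0.59 and −3.80 with p53, against 2.02, 2.25 and 2.00 without p53, so that the difference was −1.70, −2.85 and −5.79 (limma adjusted p = 0.0561). LIN37 and RBBP4 differed by less than 2-fold at every time. With limma 2 of the 6, LIN9 and LIN52, were lower at adjusted p = 0.0437 and 0.0231, beside 7.4% of all probes, named here after their values were seen. That count rests on the probes chosen: another LIN9 probe had adjusted p = 0.0870, and 3 other RBBP4 probes were lower at adjusted p = 0.0240, 0.0301 and 0.0138, against 0.126 for the RBBP4 probe used.

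Of 9 genes of the Polycomb-like complex that E2F6 joins, 1 was lower at all 3 times, beside 5.92% of all genes. MGA, its large scaffold protein, was at −1.09, −1.07 and −0.74 in treated p53+/+ cells and at 0.26, 0.37 and 0.40 in treated p53-/- cells. The difference of −1.35, −1.45 and −1.13 had a limma adjusted p = 0.00633. PCGF6, a Polycomb ring finger protein named after its values were seen, differed by −0.75, −1.18 and −1.42. It was the other of 2 genes called lower by limma (adjusted p = 0.0129), beside 7.4% of all probes. CBX3, L3MBTL2, MAX and RING1 differed by less than 2-fold at every time, and the median of the complex was −0.31, −0.54 and 0.02 at 12, 24 and 48 h, beside 0.09, −0.03 and 0.10 over all genes.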
